A study of Mus musculus with 40 samples.

Results

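Prostaglandins and leukotrienes are lipid mediators made from arachidonic acid, and 10 genes are described here in mouse bone marrow-derived macrophages (BMDMs) that lack Cpeb4. They act in the synthesis and sensing of these mediators, except Pla2g7, which acts in the breakdown of platelet-activating factor, another lipid mediator. The genes were chosen by name: Pla2g4a, Ptgs1, Ptgs2, Ptges, Ptges3, Ptger2, Ptger4, Alox5, Alox5ap and Pla2g7. All 10 were found among the 27179 genes of the deposited table. Each of them passed the filter on low values in every comparison.

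Cytosolic phospholipase A2 frees arachidonic acid from membranes, and the cyclooxygenases or 5-lipoxygenase then convert it along separate routes. Cyclooxygenases give the precursor that prostaglandin E synthases turn into prostaglandin E2, a mediator of fever, pain and vessel widening that also feeds back on macrophages through its EP receptors. 5-lipoxygenase, with its activating protein, gives the leukotrienes, which attract leukocytes and constrict airways.

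BMDMs were grown for 7 days in L-cell conditioned medium, a source of the growth factor M-CSF, from male WT and CPEB4-KO mice of a mixed C57BL/6J and 129 background. The KO was a deletion in the whole animal, named Cpeb4-/- here. Cells were left untreated or received LPS, a glycolipid of Gram-negative bacterial envelopes, at 10 ng/ml for 1, 3, 6 or 9 hr. With 4 mice of each genotype this gave 40 libraries in 10 groups of 4. WT mice were numbered 25, 69, 87 and 88, and Cpeb4-/- mice 2, 3, 55 and 62. Each mouse supplied cells for all 5 time points. Each of the 2 labelled batches held 2 mice of each genotype, whereas the 6 cages were never shared between the genotypes, so cage and genotype cannot be told apart. The mixed background also means that genes from either parental strain could differ between the mice, which was not tested. WT and Cpeb4-/- refer throughout to the labels of the libraries.

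Values are rlog values, a log2 scale made by the authors with library size taken into account, on which a gene with few counts is drawn toward its own mean. The number of reads per library cannot be read from this scale and was not used here, so no counting interval is given. Within groups, libraries correlated with an r between 0.998 and 0.999 over all genes. At 6 hr Cpeb4 itself was lower in Cpeb4-/- libraries, with 9.18 against 10.45 in WT (difference −1.27 with groups that did not overlap, exact permutation p = 0.029). At the other 4 times the Cpeb4 values of the genotypes overlapped, so gene-level Cpeb4 did not check those labels. The sources used here do not give the deleted part of the gene.

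The cells carried macrophage markers, with Lyz2 between 17.7 and 18.9 and Adgre1 between 15.5 and 16.5 in the 40 libraries. Mast cells, which make leukotrienes and prostaglandin D2 in large amounts, were represented by 1 of 6 listed markers past the filter, and Mcpt4, Tpsb2 and Cma1 were listed at 0 in every library. Of 8 neutrophil markers 4 passed, with S100a8 at most 7.70, Ly6g at or below −2.27 and Elane at or below −1.19. Of the other lists, 2 of 4 dendritic cell, 1 of 3 T cell, 1 of 4 fibroblast and 2 of 2 endothelial markers passed, and none of 3 B cell, 3 eosinophil or 3 red cell precursor markers did. The endothelial marker Kdr ranged from 7.53 to 11.31, and the summed level of both endothelial markers at 6 hr had a median of 1675 in WT and 2237 in Cpeb4-/-. These sums overlapped between the genotypes at 6 hr. At 0, 1, 3 and 9 hr they did not, and each Cpeb4-/- library lay above each WT library. The summed back-transformed level of the 8 macrophage markers had medians of 578677 to 678773 in the WT groups and 454693 to 528466 in the Cpeb4-/- groups, and was lower in each Cpeb4-/- library than in each WT library of the same time. Lyz2 weighed most in this sum, with a median of 18.3 over the 40 libraries, where the next marker, Cd14, had 16.1. The part of these levels in the differences below was not tested, and in bulk RNA fewer cells of a type and less RNA per cell cannot be told apart.

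The 3′ UTRs of these mRNAs differ in AU-rich elements, a motif class through which short-lived inflammatory mRNAs are destabilised, and in cytoplasmic polyadenylation elements (CPEs), the motif class that CPEB proteins bind. The longest annotated 3′ UTR of each gene (GENCODE M21, mm10) was searched on the transcript strand for the pentamer ATTTA and for the CPE forms TTTTAT or TTTTAAT or TTTTAAAT or TTTTACT or TTTTCAT or TTTTAAGT or TTTTGT, with overlapping matches counted. The windows below hold the densest stretch of each motif in 4 mRNAs whose course under LPS or between genotypes the results turn on. Capitals mark ATTTA in the first 3 and CPEs in the last.
Ptgs2, chr1:150105816-150105845, plus strand: agaATTTAATTTAattATTTAatATTTAta
Pla2g4a, chr1:149829657-149829686, minus strand: atttttATTTAaatgtttatATTTAcacat
Ptger4, chr15:5234215-5234244, minus strand: gaaatataATTTAaggtATTTAtgttcttc
Ptges, chr2:30890936-30890965, minus strand: gTTTTAATtttctgtggatgggtgTTTTGT

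The 3′ UTR of Ptgs2 held 14 matches to ATTTA in 2445 bases, a number reached by 0.84% of 833 3′ UTRs within 10% of its length. Its window shown above begins 34 bases after the stop codon and holds 4 of them. Pla2g4a held 4 matches in 443 bases, reached by 2.73% of 513 3′ UTRs of like length. Ptges held no match in 3106 bases, where the median of 706 3′ UTRs of like length was 5. It held 5 CPEs, where the median at like length was 9 and 81.9% held at least as many. Ptgs2 held 8 CPEs and Pla2g4a 2, where the medians at like length were 7 and 1. The 10 CPEs of Ptger2, the most of the listed genes, were reached by 15.3% of 3′ UTRs of like length. Ptger2 held 6 ATTTA and 10 CPE matches, Ptger4 held 5 and 2, Ptges3 held 4 and 5, Alox5 held 2 and 1, Alox5ap held 2 and 0, Pla2g7 held 1 and 1, and Ptgs1 held 0 and 2. Among all 11871 3′ UTRs searched, 50.9% held at least 2 ATTTA matches and 78.0% held at least 1 CPE match. A match is a description of letters and does not show that a protein binds there.

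After 6 hr of LPS, 5 of the 10 genes had risen in WT BMDMs (Ptgs2, Ptges, Pla2g4a, Ptges3 and Pla2g7) and 4 had fallen (Ptgs1, Alox5, Alox5ap and Ptger2). A call here means an adjusted p under 0.05 by limma, a linear model fitted to every gene. In the same comparison 38.7% of all genes were called higher and 39.2% lower, or 77.9% together. At 1, 3 and 9 hr, 5, 7 and 9 of the 10 were called beside 33.9%, 67.8% and 71.5% of all genes. In Cpeb4-/- BMDMs 6, 8, 10 and 9 of the 10 were called at 1, 3, 6 and 9 hr, beside 43.8%, 71.3%, 79.1% and 72.8%.

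**Figure D1:**
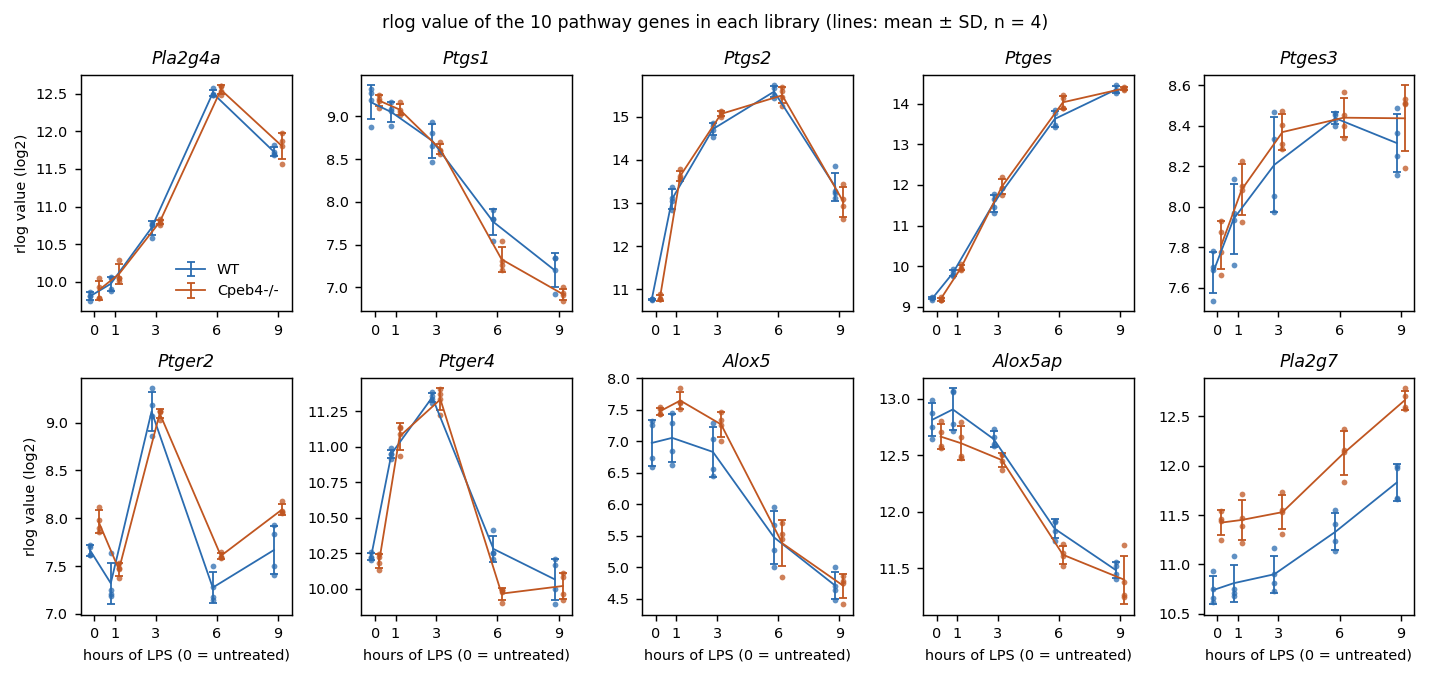
rlog value (log2) of the 10 genes against hours of LPS, with each point 1 library, and lines joining the mean ± SD of 4 libraries for WT (blue) and Cpeb4-/- (orange). Ptgs2 and Pla2g4a are highest at 6 hr and Ptges at 9 hr, Alox5, Alox5ap and Ptgs1 fall to their lowest values at 9 hr, and the Cpeb4-/- points of Pla2g7 lie above the WT points at every time.

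Pla2g4a (ENSMUSG00000056220.14, chr1:149829618-149961290, minus strand) encodes cytosolic phospholipase A2. Its rlog value in WT was 9.81 ± 0.05 (SD, n = 4) untreated and 9.97 ± 0.09, 10.72 ± 0.09, 12.51 ± 0.04 and 11.73 ± 0.06 after 1, 3, 6 and 9 hr of LPS. The 6 hr value was the highest of the 5 in each of the 4 WT and each of the 4 Cpeb4-/- mice, 6.48-fold and 6.34-fold above untreated. The earliest rise of Pla2g4a was small in WT, by 0.16 at 1 hr.

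Ptgs2 (ENSMUSG00000032487.8, chr1:150100031-150108227, plus strand) encodes the inducible cyclooxygenase 2. Untreated WT libraries were at 10.76 to 10.77, and LPS brought Ptgs2 to 13.10 ± 0.23, 14.71 ± 0.14, 15.58 ± 0.13 and 13.37 ± 0.32 after 1, 3, 6 and 9 hr. All 8 mice had their highest value at 6 hr and a lower one at 9 hr. The change from untreated in WT was 2.33, 3.95, 4.82 and 2.61 in that order. The spread of the untreated WT values (SD 0.00409) was smaller than that of all but 0.00763% of the tested genes, whose median SD was 0.116. The rlog scale draws low counts toward the mean of a gene, so folds of Ptgs2 from untreated can be understated, by an amount that was not tested.

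Ptges (ENSMUSG00000050737.13, chr2:30889471-30929863, minus strand) encodes microsomal prostaglandin E synthase 1, the inducible enzyme that acts after cyclooxygenase 2. Ptges in WT was 9.21 ± 0.02 untreated and 9.83 ± 0.08, 11.55 ± 0.21, 13.63 ± 0.20 and 14.35 ± 0.08 after 1, 3, 6 and 9 hr. Unlike Ptgs2, Ptges was highest at 9 hr in each of the 8 mice, 35.2-fold above untreated in WT and 36.5-fold in Cpeb4-/-. Its untreated WT values were also narrow (1.81% of genes had a smaller SD), so the same limit applies.

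Ptges3 (ENSMUSG00000071072.12, chr10:128058954-128077272, plus strand) encodes p23, a co-chaperone of Hsp90 also described as cytosolic prostaglandin E synthase. It rose less than Ptges, from 7.68 ± 0.10 untreated to 8.44 ± 0.03 at 6 hr in WT. Of the 50-base stretches of its longest transcript, 22.2% also occur in transcripts of 2 other loci, Ptges3-ps and Gm11893, so its values are uncertain. Ptgs1 (ENSMUSG00000047250.13, chr2:36230426-36252272, plus strand), the constitutive cyclooxygenase 1, moved the other way from Ptgs2. Ptgs1 fell in WT from 9.17 ± 0.20 untreated to 7.77 ± 0.15 at 6 hr and 7.20 ± 0.20 at 9 hr, and all 8 mice had their lowest value at 9 hr.

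Alox5 (ENSMUSG00000025701.12, chr6:116410077-116461178, minus strand) encodes 5-lipoxygenase, and Alox5ap (ENSMUSG00000060063.9, chr5:149264767-149288153, plus strand) the protein that presents arachidonic acid to it. Alox5 in WT was 6.97 ± 0.37 untreated and 7.05 ± 0.38, 6.83 ± 0.40, 5.47 ± 0.42 and 4.71 ± 0.21 after 1, 3, 6 and 9 hr. Alox5ap in WT was 12.82 ± 0.15, 12.91 ± 0.19, 12.64 ± 0.07, 11.85 ± 0.08 and 11.48 ± 0.07 at the same times. Both genes were lowest at 9 hr in all 8 mice, with falls from untreated at 9 hr of 4.81-fold for Alox5 and 2.52-fold for Alox5ap in WT. Neither passed the test at 1 hr in either genotype, except that the change of Alox5ap in Cpeb4-/- (−0.06) was −0.35 under quantile normalization (adjusted p = 0.00366).

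Both prostaglandin E2 receptor genes among the 10 had their highest values at 3 hr. Ptger1 and Ptger3 are in the list of other eicosanoid genes followed below. Of the 3 prostanoid receptor genes tested there, 1 was called higher and 2 lower at 3 hr in WT. Ptger4 (ENSMUSG00000039942.15, chr15:5206661-5244187, minus strand) and Ptger2 (ENSMUSG00000037759.6, chr14:44988195-45003820, plus strand) encode EP4 and EP2, which both raise cAMP. Ptger4 in WT was 10.22 ± 0.02 untreated and 10.95 ± 0.03, 11.35 ± 0.03, 10.28 ± 0.09 and 10.07 ± 0.15 after 1, 3, 6 and 9 hr. Ptger2 in WT was 7.66 ± 0.06, 7.32 ± 0.21, 9.12 ± 0.21, 7.28 ± 0.16 and 7.67 ± 0.26 at the same times. The 3 hr peak of Ptger4 and Ptger2 held in all 8 mice, but at 1 hr Ptger4 had risen by 0.72 in WT whereas Ptger2 stood at −0.34 from untreated. The lower value of Ptger2 at 6 hr (−0.39 in WT, adjusted p = 0.00897) was lost under quantile normalization, where the difference was 0.01. In Cpeb4-/- it went from −0.36 to −0.02 likewise. At 9 hr Ptger2 was 0.01 from untreated in WT and 0.13 in Cpeb4-/-, and under quantile normalization 0.30 (adjusted p = 0.0371) and 0.35 (2.71e-05).

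Pla2g7 (ENSMUSG00000023913.17, chr17:43568098-43612201, plus strand) encodes a secreted phospholipase that breaks down platelet-activating factor, another lipid mediator. It rose late, from 10.74 ± 0.14 untreated in WT to 11.33 ± 0.19 at 6 hr and 11.83 ± 0.18 at 9 hr. The change from untreated was 0.59 and 1.09 at these times, and the values at 1 and 3 hr did not pass the test in WT (0.07 and 0.16). Over 12 alternative fits the 6 hr change ranged from 0.26 to 0.63 in WT and from 0.24 to 0.74 in Cpeb4-/-, and was called in each. All 8 mice had their highest Pla2g7 value at 9 hr.

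**Figure D2:**
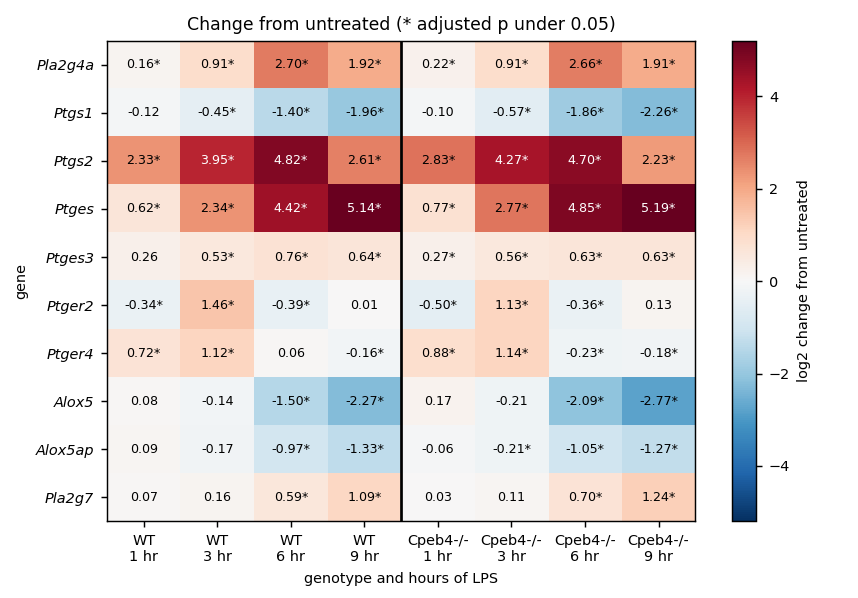
Change of each gene from untreated on the log2 scale in WT (left 4 columns) and Cpeb4-/- (right 4 columns), by hours of LPS, with asterisks at adjusted p under 0.05. Red cells are rises and blue cells falls. Ptges at 9 hr (5.14 and 5.19) has the darkest red, followed by Ptges at 6 hr in Cpeb4-/- (4.85) and Ptgs2 at 6 hr (4.82 and 4.70). Alox5 at 9 hr (−2.27 and −2.77) has the darkest blue.

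Over the 10 group means, Ptgs1 and Alox5ap had the most similar courses of any pair of the 10 genes (Pearson r = 0.98), followed by Ptgs1 with Alox5 (0.97) and Pla2g4a with Ptges (0.94). Ptgs1 and Ptges ran opposite to each other (−0.97). These values describe 10 points that share their mice, and carry no test. Among 12942 other genes, the courses nearest to Ptges were those of Cd38 (r = 0.999), Rps6ka4 (0.996) and Lox (0.995). Nearest to Ptgs2 were Mapre1 (0.991), Cggbp1 (0.990) and Hcar2 (0.989), nearest to Pla2g4a were Apool (0.998), Heg1 (0.997) and Npepps (0.997), and nearest to Alox5 were Fat3 (0.997), Pde1c (0.996) and Cdkl2 (0.995). A correlation does not measure the size of a change. Group means of Mapre1 spanned 12.4 to 12.9, of Cggbp1 11.9 to 12.9 and of Hcar2 7.67 to 11.3, against 10.8 to 15.6 for Ptgs2.

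Some of the small LPS changes lost or gained their call without 1 mouse or under another fit. The 1 hr change in WT was lost for Pla2g4a without mouse 25 (0.15) or 69 (0.14), and for Ptger2 without mouse 25 (−0.32), 87 (−0.31) or 88 (−0.30). Both were lost also under quantile normalization (0.10 and −0.26, adjusted p = 0.0985 and 0.113), Pla2g4a in the fit of all 40 libraries (0.0528) and Ptger2 with no filter (0.0743). In Cpeb4-/- the 1 hr change was lost for Pla2g4a (0.22) without mouse 55 (0.25) or 62 (0.20) and for Ptges3 (0.27) without mouse 55 (0.22). That of Pla2g4a was lost also with no filter (adjusted p = 0.0514) and under quantile normalization (0.15, 0.0887). With each mouse as a block, the changes of Alox5ap (−0.17) and Pla2g7 (0.16) at 3 hr and of Ptges3 (0.26) at 1 hr in WT passed the test (adjusted p = 0.0184, 0.00402 and 0.0282), as did those of Pla2g7 at 3 hr (0.11) and Ptger2 at 9 hr (0.13) in Cpeb4-/- (adjusted p = 0.0451 and 0.0480). The 9 hr change of Ptger4 was lost in WT without mouse 69 (−0.12) or 88 (−0.10) and in Cpeb4-/- without mouse 55 (−0.14), and the 3 hr change of Alox5ap in Cpeb4-/- without mouse 3 (−0.21) or 55 (−0.18), with no filter (adjusted p = 0.0697) and without the trend (0.0519). Under quantile normalization the 3 hr change of Alox5ap in WT was −0.75 and passed the test.

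The comparison between genotypes asks how the absence of CPEB4, a protein that binds CPEs in 3′ UTRs, goes with these mRNA levels. Pla2g7 was higher in Cpeb4-/- than in WT at all 5 times. Ptgs2 was higher at 1 and 3 hr and not at 6 or 9 hr, Ptges was higher at 6 hr, and Ptger2 was higher at 6 and 9 hr. Ptger4, Ptgs1 and Alox5ap were lower at 6 hr. Pla2g4a, Ptges3 and Alox5 passed the test at no time. Untreated and after 1, 3, 6 and 9 hr, 1, 2, 2, 6 and 2 of the 10 were called, beside 1.31%, 1.91%, 3.68%, 16.3% and 7.91% of all genes tested. Of the 6 at 6 hr, 3 were higher and 3 lower, beside 6.4% of all genes called higher and 9.92% lower.

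**Figure D3:**
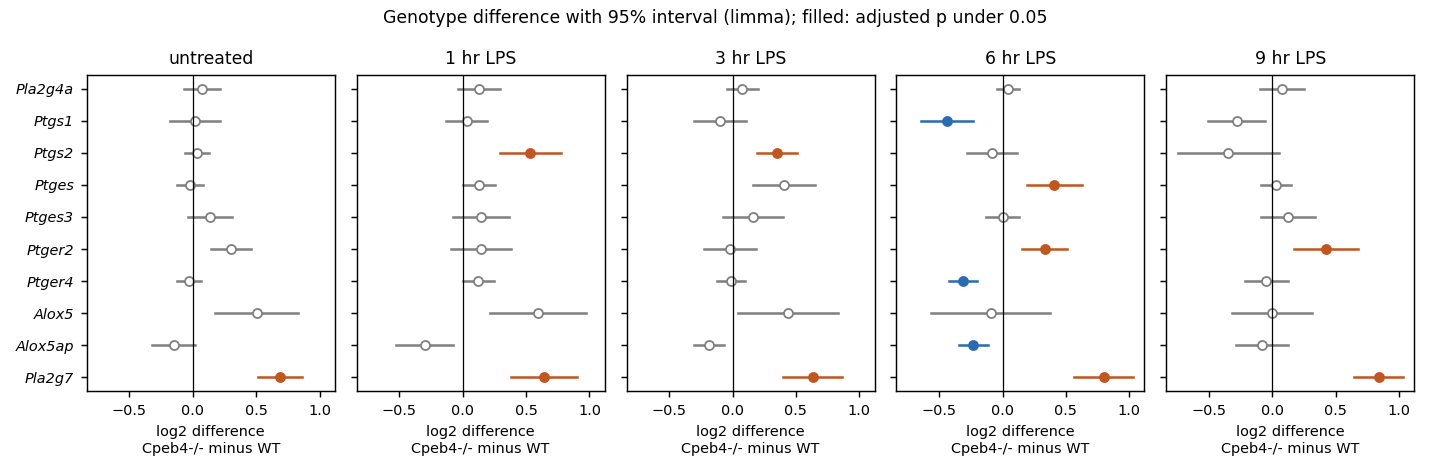
Difference between Cpeb4-/- and WT (log2, Cpeb4-/- minus WT) for the 10 genes in 5 panels from untreated to 9 hr of LPS, with points at the limma estimate and lines over its 95% interval, n = 4 libraries per genotype. Filled points passed an adjusted p of 0.05 (orange higher, blue lower in Cpeb4-/-). Pla2g7 is filled in every panel (0.63 to 0.84), and the 6 hr panel has 6 filled points.

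Untreated Pla2g7 was 10.62, 10.93, 10.66 and 10.75 in WT mice 25, 69, 87 and 88 and 11.44, 11.54, 11.46 and 11.24 in Cpeb4-/- mice 2, 3, 55 and 62. At 9 hr it was 11.67, 12.00, 11.67 and 11.98 in the same WT mice and 12.71, 12.78, 12.59 and 12.58 in the same Cpeb4-/- mice. Every Cpeb4-/- library lay above every WT library at each of the 5 times, and the ranges of the 2 genotypes moved upward together. For scale, 10.5%, 15.7%, 13.6%, 20.2% and 16.9% of all genes had groups that did not overlap at 0, 1, 3, 6 and 9 hr.

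The difference of Pla2g7 was 0.69 ± 0.08 (SE) untreated and 0.64 ± 0.12, 0.63 ± 0.10, 0.80 ± 0.11 and 0.84 ± 0.09 after 1, 3, 6 and 9 hr, or 1.55-fold to 1.79-fold, with adjusted p of 0.00266, 0.0310, 0.0140, 0.000743 and 0.00100. Within batches it ranged from 0.55 to 0.86 over the 5 times. The change of the difference with LPS did not pass the test: at 9 hr it was 0.15 from untreated, with a 95% interval of −0.18 to 0.49. Of its 2905 exon bases 319 lie over the antisense locus 1700071M16Rik, and the library kit does not mark strand. The call at 1 hr was lost without any 1 of 6 mice (Cpeb4-/- 3, 55 and 62, WT 25, 87 and 88, with differences of 0.55 to 0.72 and adjusted p of 0.0505 to 0.0946), with no filter (0.0961), without the trend (0.0510) and with batch in the fit (0.0507). At 3 hr it was lost without Cpeb4-/- mouse 2 or 3 (0.63 and 0.56, adjusted p = 0.0501 and 0.0577) and with no filter (0.0666).

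Ptgs2 at 1 hr was 13.12, 13.38, 12.83 and 13.05 in WT mice 25, 69, 87 and 88 and 13.53, 13.79, 13.57 and 13.63 in Cpeb4-/- mice 2, 3, 55 and 62. At 3 hr it was 14.70, 14.85, 14.52 and 14.80 in the WT and 15.00, 15.13, 15.10 and 15.04 in the Cpeb4-/- mice. The genotypes did not overlap at either time. By 9 hr they did, with 13.29, 13.85, 13.12 and 13.24 in the WT and 12.63, 13.44, 13.09 and 12.94 in the Cpeb4-/- mice.

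The difference of Ptgs2 was 0.53 ± 0.11 (SE) at 1 hr (1.45-fold, adjusted p = 0.0393) and 0.35 ± 0.07 at 3 hr (1.28-fold, 0.0309). At 6 hr it was −0.09, with a 95% interval of −0.28 to 0.11, and at 9 hr −0.35, with an interval of −0.75 to 0.05 (adjusted p = 0.242). In a fit of all 40 libraries with the mouse as a block, the 9 hr difference passed the test (adjusted p = 0.0323). Within batches 1 and 2 the differences were 0.63 and 0.44 at 1 hr, 0.34 and 0.36 at 3 hr, and −0.07 and −0.62 at 9 hr. Against untreated, the genotype difference had moved by 0.50 at 1 hr (interval 0.14 to 0.87, unadjusted p = 0.0082), which did not pass the test over all genes (adjusted p = 0.90). The 1 hr call was lost without any 1 of 6 mice (Cpeb4-/- 3, 55 and 62, WT 25, 87 and 88, differences 0.45 to 0.55, adjusted p 0.0613 to 0.135) and the 3 hr call without any 1 of 5 (Cpeb4-/- 2, 3, 55 and 62, WT 25, differences 0.33 to 0.37, adjusted p 0.0680 to 0.110), and both were lost with no filter, without the trend and with batch in the fit (adjusted p 0.0556 to 0.115). The 3 hr call was lost also in the fit of all 40 libraries (0.0720).

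Ptges at 3 hr was 11.65, 11.78, 11.46 and 11.31 in WT mice 25, 69, 87 and 88 and 11.94, 11.92, 11.75 and 12.21 in Cpeb4-/- mice 2, 3, 55 and 62. At 6 hr it was 13.77, 13.48, 13.83 and 13.43 in the WT and 14.14, 13.90, 13.89 and 14.22 in the Cpeb4-/- mice. The groups overlapped at 3 hr, where 1 Cpeb4-/- library lay under the highest WT library, and did not at 6 hr. At 9 hr they overlapped, and both had closed on a mean of 14.4.

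The difference of Ptges was 0.41 ± 0.11 (SE) at 3 hr (adjusted p = 0.0720), 0.41 ± 0.10 at 6 hr (1.33-fold, 0.0150) and 0.03 at 9 hr, with a 95% interval of −0.09 to 0.14. With the mouse as a block the 3 hr difference passed (adjusted p = 0.00160), as in the fit of all 40 libraries without it (0.00232). Without WT mouse 69 or 88 it passed also (0.48 and 0.33, adjusted p = 0.0473 and 0.0446). At 6 hr the genotype difference was 0.43 above its untreated value (adjusted p = 0.0457), a call shared by 2.94% of all genes, and with the mouse as a block the same held at 3 hr (0.43, adjusted p = 0.0395). The 6 hr change was lost without any 1 of 6 mice (Cpeb4-/- 2, 3 and 62, WT 25, 69 and 88, values 0.37 to 0.48, adjusted p 0.0650 to 0.196), and it and the 6 hr difference were both lost with no filter (adjusted p = 0.0752 and 0.103) and without the trend (0.0573 and 0.0575).

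Ptger4 at 6 hr was 10.25, 10.41, 10.25 and 10.21 in WT mice 25, 69, 87 and 88 and 9.99, 9.90, 9.98 and 9.99 in Cpeb4-/- mice 2, 3, 55 and 62. The 2 genotypes were separate at 6 hr, with Cpeb4-/- lower, and overlapped at the other 4 times. The difference was −0.31 ± 0.05 (SE, adjusted p = 0.00183), with −0.28 and −0.35 in batches 1 and 2. At 3 hr, the peak of Ptger4, it was −0.01 with a 95% interval of −0.12 to 0.09. The genotype difference at 6 hr was −0.29 from its untreated value (adjusted p = 0.0355), with changes from untreated of −0.23 in Cpeb4-/- and 0.06 in WT. That change was lost under quantile normalization (−0.23, adjusted p = 0.143) and without any 1 mouse except WT 88 (−0.31 to −0.25, adjusted p 0.0575 to 0.134), whereas the 6 hr difference was kept without each mouse and under each alternative. Of the 50-base stretches of its longest transcript, 25.7% also occur in transcripts of Ttc33, on the opposite strand, and Gm15937, so the values of Ptger4 are uncertain.

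Ptger2 differed in the other direction. At 6 hr it was 7.28, 7.50, 7.14 and 7.18 in WT mice 25, 69, 87 and 88 and 7.65, 7.59, 7.60 and 7.60 in Cpeb4-/- mice 2, 3, 55 and 62. At 9 hr it was 7.50, 7.84, 7.41 and 7.93 in the WT and 8.18, 8.05, 8.06 and 8.07 in the Cpeb4-/- mice. The groups did not overlap at 6 and 9 hr, nor untreated, where the difference of 0.30 did not pass the test (adjusted p = 0.0679). At 1 hr a difference of 0.25 passed without WT mouse 69 (0.0474). The difference of Ptger2 was 0.33 ± 0.08 (SE) at 6 hr (adjusted p = 0.0172) and 0.42 ± 0.11 at 9 hr (0.0465). At its 3 hr peak it was −0.02, with a 95% interval of −0.22 to 0.18. The 6 hr call was lost with no filter (0.0539) and without Cpeb4-/- mouse 2 (0.32, 0.0527), and the 9 hr call with no filter (0.123), without the trend (0.0710), under quantile normalization (0.0768) and without any 1 of 6 mice (Cpeb4-/- 3, 55 and 62, WT 25, 69 and 87, differences 0.34 to 0.48, adjusted p 0.0628 to 0.130).

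Ptgs1 at 6 hr was 7.81, 7.55, 7.90 and 7.81 in WT mice 25, 69, 87 and 88 and 7.31, 7.27, 7.54 and 7.20 in Cpeb4-/- mice 2, 3, 55 and 62. The highest Cpeb4-/- library, of mouse 55, lay just under the lowest WT library, of mouse 69. The difference was −0.44 ± 0.09 (SE, 1.35-fold lower, adjusted p = 0.00885) at 6 hr, and this call was kept without each mouse and under each alternative. At 9 hr it was −0.28 (adjusted p = 0.113), which passed with the mouse as a block (0.0119), in the fit of all 40 libraries without it (0.0391) and without WT mouse 69 (−0.37, 0.0409). Against untreated the 6 hr difference had moved by −0.46 (adjusted p = 0.0566). The mouse block brought that change past the test at 6 hr (adjusted p = 0.000175) and at 9 hr (−0.30, 0.0117), and leaving out WT mouse 69 did so at 6 hr (−0.43, 0.0170).

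Alox5ap at 6 hr was 11.74, 11.83, 11.92 and 11.91 in WT mice 25, 69, 87 and 88 and 11.71, 11.52, 11.63 and 11.61 in Cpeb4-/- mice 2, 3, 55 and 62. The groups did not overlap, although Cpeb4-/- mouse 2 came within 0.03 of WT mouse 25. The difference was −0.23 ± 0.05 (SE, adjusted p = 0.0115) at 6 hr, with −0.26 and −0.20 in batches 1 and 2. It was negative also at 0, 1, 3 and 9 hr (−0.15, −0.30, −0.19 and −0.08) without passing the test, except at 1 hr with the mouse as a block (adjusted p = 0.00813) or in the fit of all 40 libraries without it (0.0137), at 3 hr without WT mouse 88 (−0.21, 0.0242) and at 9 hr without Cpeb4-/- mouse 2 (−0.19, 0.0161). The 6 hr call was lost with no filter (0.0533) and in the fit of all 40 libraries (0.0679). Of its exon bases 13.3% lie over the antisense locus Gm19719.

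Alox5 had the largest SD of the 10 genes among WT mice at 0, 1, 3 and 6 hr. Untreated it was 6.73, 7.26, 6.59 and 7.32 in WT mice 25, 69, 87 and 88 and 7.51, 7.54, 7.42 and 7.43 in Cpeb4-/- mice 2, 3, 55 and 62. WT mice 25 and 87 were low also at 1 and 3 hr, so the WT values fell into a lower and an upper pair, each with 1 mouse of either batch. The groups did not overlap at 0 and 1 hr, with differences of 0.50 ± 0.15 (SE, adjusted p = 0.128) and 0.59 ± 0.17 (0.0765) that did not pass the test. The 1 hr difference passed with the mouse as a block (0.0142), in the fit of all 40 libraries without it (0.0269) and without WT mouse 69 (0.67, 0.0430), and the 3 hr difference (0.44) passed without WT mouse 88 (0.59, 0.0248). By 6 and 9 hr the difference was −0.09 and 0.00, with 95% intervals of −0.56 to 0.38 and −0.32 to 0.31. The genotype difference at 6 hr was −0.60 from untreated (adjusted p = 0.307), which passed with the mouse as a block (0.0371).

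The differences of Pla2g4a were between 0.04 and 0.13 at the 5 times, and the 95% interval reached 0.30 at most. It passed the test at 6 hr under quantile normalization (0.10, adjusted p = 0.0492) and at 9 hr without Cpeb4-/- mouse 2 (0.15, 0.0383). Ptges3 differed by 0.00 to 0.16, with intervals reaching 0.40.

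The interaction test of genotype and time called 0, 0, 2 and 0 of the 10 genes at 1, 3, 6 and 9 hr, beside 0.00763%, 0.206%, 2.94% and 1.76% of all genes. The 2 at 6 hr were Ptges and Ptger4, described above. With the mouse as a block the numbers were 0, 1, 4 and 1: Ptges at 3 hr, Alox5, Ptger4, Ptges and Ptgs1 at 6 hr, and Ptgs1 at 9 hr. The untreated libraries enter all 4 tests, which are therefore not independent. Untreated WT values were narrow for Ptgs2, Ptges and Ptger4 (SD 0.004, 0.024 and 0.024, where the median gene had 0.116). The effect of the rlog scale on the interaction was not tested.

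The rest of the eicosanoid pathway was followed through 66 other listed genes, all of which were found and 22 of which were under the filter in every comparison, among them Ptgds, Ptgis, Tbxa2r and Alox15. In WT at 6 hr 16 of 43 tested genes had risen and 24 had fallen, where 38.7% of all genes were called higher and 39.2% lower. The largest rises were Fpr2, a receptor for formyl peptides and lipoxins (3.91 on the log2 scale), the phospholipase Pla2g16 (2.60), the acyl-CoA synthetase Acsl1 (2.54) and the prostacyclin receptor Ptgir (1.42). The largest falls were Hpgd (−2.62), which encodes the dehydrogenase that inactivates prostaglandins, Ggt5 (−1.87) and Ltc4s (−1.31), which act in leukotriene C4 conversion and synthesis, and the secreted phospholipase Pla2g2e (−1.65).

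Between genotypes, 1, 4, 1, 10 and 7 of these other genes were called at 0, 1, 3, 6 and 9 hr, of 42 to 44 tested, where 1.31%, 1.91%, 3.68%, 16.3% and 7.91% of all genes were. Without 1 mouse these counts became 0 to 2, 0 to 13, 0 to 11, 7 to 12 and 2 to 23, with the highest at 1, 3 and 9 hr without WT mouse 69, WT mouse 88 and Cpeb4-/- mouse 2. At 6 hr 6 were higher and 4 lower in Cpeb4-/-. The chemerin and resolvin receptor gene Cmklr1 was higher at 1, 6 and 9 hr (0.54, 0.53 and 0.55), and Ptgir at 3 and 6 hr (0.50 and 0.33). Hpgds, which encodes the hematopoietic prostaglandin D synthase, was lower at 6 and 9 hr (−0.42 and −0.41, adjusted p = 0.000391 and 0.00308), and kept these calls without each mouse and under each alternative. Untreated Hpgds was 12.42 in both genotypes, and the interaction was called at both times (−0.42, adjusted p = 0.000753, and −0.41, 0.000978).

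Fpr2 was lower in Cpeb4-/- at 1, 6 and 9 hr (−0.29, −0.21 and −0.37), and Pla2g16 at 6 hr (−0.32). Ltc4s, the leukotriene C4 synthase gene, was lower at 1 hr (−0.72), and the leukotriene B4 receptor gene Ltb4r1 was higher at 9 hr (0.70) at a low level of 4.15 against 3.45 in WT. Alox12, which encodes a platelet-type lipoxygenase, was higher at 9 hr (0.83) at a still lower level of 3.22 against 2.39. Pafah2, a second gene of platelet-activating factor breakdown, was higher at 6 hr (0.34), and Ptgr1, a reductase of prostaglandins and leukotriene B4, at 6 and 9 hr (0.17 and 0.31).

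Several of these calls were lost without 1 mouse or under another fit. With no filter those of Cmklr1, Fpr2 and Ltc4s at 1 hr, Ptgir at 3 hr, and Cmklr1, Ltb4r1, Alox12 and Ptgr1 at 9 hr were lost (adjusted p 0.0597 to 0.117). Without the trend those of Cmklr1 and Fpr2 at 1 hr, Ptgir at 3 hr and Ptgr1 at 6 and 9 hr were lost (0.0552 to 0.0759). With batch in the fit Cmklr1 at 1 hr (0.0611) and Ptgir at 3 hr (0.0665) were lost, and under quantile normalization Ptgr1 at 9 hr (0.0509). Cmklr1 and Fpr2 at 1 hr were lost without any 1 of Cpeb4-/- mice 3, 55 and 62 and WT mice 25, 87 and 88 (differences of 0.45 to 0.57 and −0.32 to −0.27). Ptgir at 3 hr was lost without any 1 Cpeb4-/- mouse or WT mouse 25 or 87 (0.42 to 0.51), and Ptgr1 at 9 hr without Cpeb4-/- mouse 3 or 55 or any 1 WT mouse (0.28 to 0.33). Ltc4s at 1 hr was lost without Cpeb4-/- mouse 3, 55 or 62 or WT mouse 87 or 88 (−0.76 to −0.65). Ltb4r1 was lost without Cpeb4-/- mouse 55 or 62 or WT mouse 25, 69 or 88 (0.61 to 0.74), and Alox12 without Cpeb4-/- mouse 3 or 62 or WT mouse 25, 87 or 88 (0.79 to 0.84). Cmklr1 at 9 hr was lost without WT mouse 25 (0.53) or 87 (0.48), and Ptgr1 at 6 hr without Cpeb4-/- mouse 2 (0.15) or WT mouse 69 (0.14). With the mouse as a block, Fpr2 and Ptgr1 at 6 hr were lost (adjusted p = 0.0593 and 0.132), as in the fit of all 40 libraries without it (0.0601 and 0.158).

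**Figure D4:**
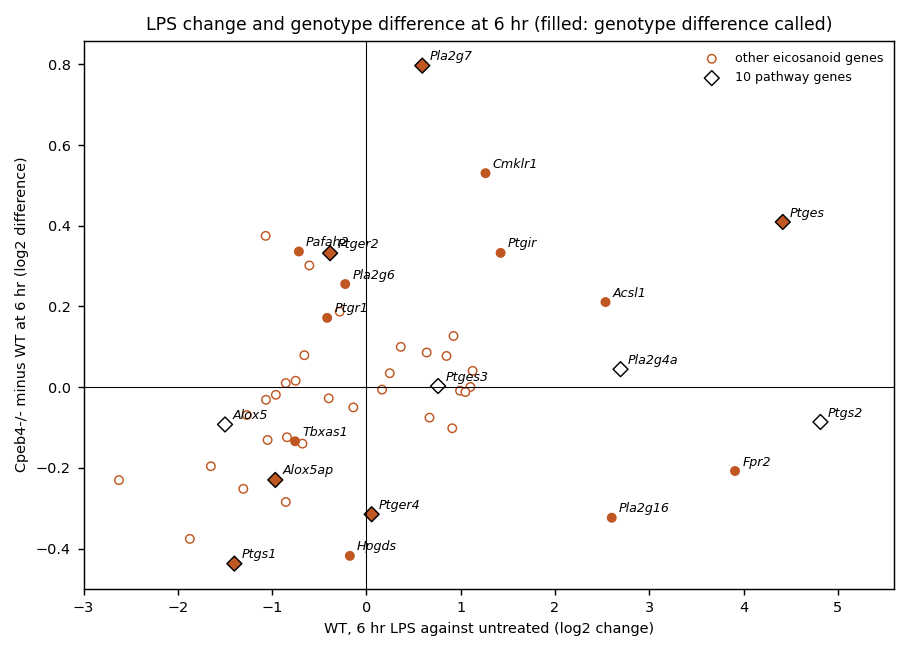
Change under 6 hr of LPS in WT (horizontal, log2) against the difference between Cpeb4-/- and WT at 6 hr (vertical, log2) for the 10 pathway genes (diamonds) and the other eicosanoid genes tested (circles), filled where the genotype difference passed an adjusted p of 0.05. The 2 axes share the WT libraries at 6 hr. Pla2g7 is highest (0.80), and Ptges combines a rise of 4.42 with a difference of 0.41. Filled points low on the vertical axis include Ptgs1, Hpgds, Pla2g16, Ptger4 and Alox5ap.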

How the data were processed

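RNA-seq libraries of BMDMs from 4 WT and 4 Cpeb4-/- mice at 5 times of LPS treatment were analysed from the deposited table. Poly(A) libraries were made with a NEBNext Ultra II kit that does not mark strand. The authors aligned reads with STAR 2.3.0e to mm10, counted them per gene with featureCounts and deposited regularized log (rlog, log2) values from DESeq2. These log2 values hold no counts or depth, so count tests were not possible and precision is given by the spread between mice.

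Groups, mice and batches followed the labels. R 4.3.3 and limma 3.58.1 were used for linear fits with a variance trend (eBayes), keeping genes whose mean rlog reached log2 of 5; the block used statmod 1.5.0. WT and Cpeb4-/- were compared within each time (8 libraries), times within each genotype (20), and the interaction over 40, giving 23 comparisons. P-values were two-sided and adjusted by the Benjamini-Hochberg method over all genes, with calls under 0.05. Single genes were also tested by two-sided exact permutation of 4 against 4 libraries, whose smallest p is 0.029. The fits were tested on simulated data in which all libraries were independent, so the likeness of libraries of 1 mouse was not covered.

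Each mouse gave all 5 times, as its replicate number in the labels states. Deviations from group means correlated with a median r of 0.29 for libraries of 1 mouse (68 of 80 pairs over 0.1) and −0.09 for different mice. The mouse was therefore also fitted as a block.

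The 10 genes, the list of 66 other eicosanoid genes and the marker lists of macrophages and other cell types were chosen with earlier results of these data known. Named among the 66 are the 10 with the largest called genotype difference and the 4 largest rises and falls in WT at 6 hr. Alternatives were no filter, a stricter filter (mean rlog 5), no variance trend, robust variances, quantile normalization, batch as a covariate, all 40 libraries in 1 fit, the block, and leaving out each mouse. Annotation and transcripts were those of GENCODE M21 (mm10). Python 3.11.15 with numpy 2.4.6, pandas 2.3.3, scipy 1.17.1 and matplotlib 3.10.9 was used.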

Additional observations from a re-analysis of the deposited data

Results flagged for a closer look

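The change of the genotype difference with LPS differed from 0 by the interaction test for 2 of the 10 genes, both at 6 hr: Ptger4 (−0.29) and Ptges (0.43).

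In 9 of the 100 groups of 4 libraries tested, 1 library stood apart from the other 3 by Dixon's criterion, where chance gives about 1 in 20. For Pla2g4a these were Cpeb4-/- mouse 3 at 1 hr (10.30, others 10.01 to 10.06), WT mouse 87 at 3 hr (10.58, others 10.75 to 10.78) and WT mouse 88 at 6 hr (12.57, others 12.48 to 12.49). Ptgs2 was higher in Cpeb4-/- mouse 3 untreated (10.89, others 10.77). Ptges3 was lower in Cpeb4-/- mouse 2 at 9 hr (8.19, others 8.51 to 8.53). Ptger2 stood apart in Cpeb4-/- mouse 2 at 3 hr (9.03, others 9.11 to 9.12) and 9 hr (8.18, others 8.05 to 8.07) and in WT mouse 69 at 1 hr (7.64, others 7.19 to 7.25). Ptger4 was lower in Cpeb4-/- mouse 3 at 6 hr (9.90, others 9.98 to 9.99).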

How the results depend on the processing

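Numbers below are of the 10 genes called between the genotypes unless stated. At 1 hr 2 were called, against 0 with no filter, 0 without the variance trend and 0 with batch in the fit. In the fit of all 40 libraries and with the mouse as a block 4 each were called. Leaving out 1 mouse gave 0 to 4. The number was 0 without Cpeb4-/- mouse 3, 55 or 62 or WT mouse 25, 87 or 88, and 4 without WT mouse 69. At 3 hr 2 were called, against 0 with no filter, 1 without the trend and 1 with batch. Without 1 mouse the number was 0 to 5 (0 without Cpeb4-/- mouse 2 or 3, 5 without WT mouse 88). At 6 hr 6 were called, against 3 with no filter. At 9 hr 2 were called, against 1 with no filter, 1 without the trend, 1 under quantile normalization, 4 with the block, and 1 to 4 without 1 mouse (4 without Cpeb4-/- mouse 2). For the interaction, 0, 2 and 0 were called at 3, 6 and 9 hr, against 1, 4 and 1 with the replicate block; at 6 hr 1 was called with no filter, 1 without the trend, 1 under quantile normalization and 0 to 1 without 1 mouse. The 5 called at 1 hr of LPS in WT became 3 to 5. The fall of Ptger2 at 6 hr in WT was −0.39, and 0.012 under quantile normalization (adjusted p = 0.937).

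Over all genes, no filter gave 50, 53, 167, 1288 and 582 calls at 0, 1, 3, 6 and 9 hr, against 171, 251, 481, 2129 and 1029. The fit of all 40 libraries gave 326, 4182, 1311 and 2280 at 0, 1, 3 and 9 hr, and with the block 414, 4323, 1393 and 2378. Batch gave 146, 194 and 1781 at 1, 3 and 9 hr, and no trend 230 at 3 hr. Leaving out 1 mouse gave 44 to 163, 40 to 2440, 76 to 2584, 1347 to 2331 and 387 to 4575. For the interaction, 1, 27, 385 and 231 calls became 0 to 2, 5 to 21, 84 to 391 and 89 to 226 without 1 mouse, and 72, 1032 and 654 with the block at 3, 6 and 9 hr. At 1 hr it called 8 with no filter and 0 at the stricter filter, and at 6 hr 227 under quantile normalization. Quantile normalization moved the share of calls that were higher from 39.2% to 51.0% between genotypes at 6 hr, from 51.0% to 38.0% in WT and 54.3% to 38.1% in Cpeb4-/- at 1 hr of LPS, and from 30.6% to 44.9% for the interaction at 6 hr. The cause of these changes was not tested. Depth was not used here, so the spread of 4 mice sets the precision.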
